A study of Mus musculus with 16 samples.

Results

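The genes described here are 10 regulators and surface proteins of the passage from endothelium to blood: Runx1, Gfi1, Gfi1b, Myb, Spi1, Kit, Mecom, Gata1, Nfe2 and Ptprc. They were chosen by name from the 22096 gene symbols in the deposited tables, and the FPKM (fragments counted per transcript length and per library size) of each gene's transcripts were summed. All 10 were found, 9 under their own symbol and Spi1 under its older symbol Sfpi1. Their mean over the 16 libraries passed the minimum of 1 FPKM set for testing in 7 genes (Runx1, Gfi1b, Spi1, Kit, Mecom, Gata1 and Nfe2) and not in 3 (Gfi1, Myb and Ptprc), among 10550 genes tested in all.

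The study sequenced RNA of endothelial cells sorted by FACS with an antibody to CD31 from whole mouse embryos at day 9.5, and it asked how the number and kind of Notch1 alleles change endothelial gene expression. In the 3 12/- libraries (label N1_12_-), 1 allele carries the intracellular domain of Notch2 in place of that of Notch1 and the other is deleted, and the labels describe endothelial dysfunction. The 1 12/vg library (N1_12_vg) pairs the same swapped allele with Vg, a valine-to-glycine substitution described as giving a less stable intracellular fragment, and is described as partly dysfunctional. The 3 +/12 (N1_plus_12), 3 +/- (N1_plus_-) and 3 +/vg (N1_plus_vg) libraries each carry 1 wild-type allele beside the swapped, the deleted or the Vg allele, and the 3 +/+ libraries (N1_plus_plus in 1, N1_pl_pl in 2, taken as 1 group) carry 2. These 4 genotypes are described as having normal endothelium. No wild-type Notch1 allele is present in 12/- or 12/vg as these are named, and a sort on CD31 also admits blood cells that carry it, such as platelets. How many embryos went into a library is not given, so replicate spread may be technical, and that spread is all a p-value here is set against.

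Blood stem and progenitor cells arise in the mid-gestation mouse embryo from haemogenic endothelium, endothelial cells of the yolk sac and large arteries that switch to a blood programme. Runx1 is the factor required for that switch, Gfi1 and Gfi1b act below it as repressors that silence endothelial genes, and Notch1 signalling is required in the arterial endothelium for definitive haematopoiesis. Primitive red cells, megakaryocytes and macrophages are already made in the yolk sac by then, and several of the 10 genes are used again in those cells.

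Runx1 is transcribed from a distal and a proximal promoter, and both starts are shown because the libraries differed in their use of them; Gfi1b and Gata1 are shown because their levels followed platelet genes from library to library. The 4 windows are the 250 bases upstream of the RefSeq start on GRCm38.p6, all on the minus strand, 5′ to 3′, with any match to the motifs searched in capitals. The distal Runx1 window lies at chr16:92826075-92826324 (45.6% G or C), the proximal one at chr16:92697330-92697579 (67.6%), that of Gfi1b at chr2:28621983-28622232 and that of Gata1 at chrX:7967911-7968160.
Runx1 distal: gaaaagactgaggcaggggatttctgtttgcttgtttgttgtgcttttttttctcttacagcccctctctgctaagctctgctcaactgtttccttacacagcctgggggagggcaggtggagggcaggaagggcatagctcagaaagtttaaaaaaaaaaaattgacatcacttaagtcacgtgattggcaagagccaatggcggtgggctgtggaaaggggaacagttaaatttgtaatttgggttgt
Runx1 proximal: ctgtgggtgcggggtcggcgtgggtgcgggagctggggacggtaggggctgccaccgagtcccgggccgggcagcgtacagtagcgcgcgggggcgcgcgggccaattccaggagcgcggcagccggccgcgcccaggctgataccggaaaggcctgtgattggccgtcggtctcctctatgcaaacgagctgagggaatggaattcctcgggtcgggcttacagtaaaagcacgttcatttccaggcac
Gfi1b: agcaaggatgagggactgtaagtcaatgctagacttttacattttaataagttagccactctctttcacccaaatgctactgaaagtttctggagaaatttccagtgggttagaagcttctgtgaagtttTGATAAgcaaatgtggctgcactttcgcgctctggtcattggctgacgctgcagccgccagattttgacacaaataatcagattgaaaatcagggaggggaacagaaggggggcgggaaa
Gata1: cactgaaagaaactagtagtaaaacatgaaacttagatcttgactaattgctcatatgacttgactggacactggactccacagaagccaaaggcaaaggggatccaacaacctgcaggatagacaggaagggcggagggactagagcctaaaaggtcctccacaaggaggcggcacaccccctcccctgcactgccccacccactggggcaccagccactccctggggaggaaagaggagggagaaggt
A 30-base run inside the first transcribed bases of the distal Runx1 transcript, at positions 21 to 50 from the start (chr16:92826025-92826054), is shown because it holds 2 matches to the RUNX motif.
Runx1 distal, transcribed: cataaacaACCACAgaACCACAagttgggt

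Both strands of the 300-base windows (250 upstream and 50 transcribed bases) were searched for 4 motifs. The RUNX motif was TGTGGT, and the motif of GATA factors was either AGATAA or else TGATAA. The motif of RBPJ, the DNA-binding partner of Notch, was GTGGGAA, and that of ETS factors was CCGGAAG. Both GATA forms share the letters GATAA, and no match found to 1 motif overlapped a match to another. The TGATAA form and the transcribed bases were added after the result of a first search, with AGATAA and the upstream bases only, had been seen. RefSeq windows were at hand for 8 of the 10 genes, 13 windows in all, and Nfe2 and Spi1 were not searched. The 2 windows of Kit overlap almost fully and the 2 of Ptprc in part, so the 13 are not independent. ACCACA, the reverse complement of TGTGGT, occurs at bases 29 and 37 of the distal Runx1 transcript, and a RUNX match was found in 1 of the 13 windows against 16.8% of all 32851 mouse windows. GATA matches were found in 3 windows, those of Gfi1b (120 bases upstream), the distal start of Mecom (31 bases upstream) and 1 start of Ptprc (25 and 100 bases upstream), against 18.6% of all windows. An ETS match was found in 1 window, a Gfi1 start, against 8.86%, and the RBPJ motif in 0 of 13, against 6.38%. The Gata1, Kit and Myb windows held none of the letters searched, which says nothing about binding elsewhere.

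The libraries are described by 3 facts that touch the results below. Aligned sequence was 1.11 to 1.80 gigabases in 14 libraries but 0.262 in 12/vg and 0.189 in +/- replicate 2, and the number of reads behind single values is not given. Library numbers in the file names fall into a low range (9 libraries) and a high range (7 libraries) with a wide gap between: all 12/-, 12/vg and +/12 libraries are in the low range, all +/+ libraries are in the high range, and +/- and +/vg have 2 high (replicates 1 and 2) and 1 low (replicate 3). So for 12/- or +/12 against +/+ the genotype and the range cannot be told apart by levels alone. For 12/- against +/-, +/vg or groups that include them, and for +/- or +/vg against +/+, they are partly confounded. Levels below are scaled FPKM, that is FPKM divided by a median-ratio factor of each library. Notch1, the targeted gene, was at 15.4 to 19.7 scaled FPKM in 12/-, 15.4 in 12/vg, 14.5 to 16.0 in +/12, 16.4 to 23.2 in +/-, 20.4 to 23.2 in +/vg and 17.4 to 23.3 in +/+; a summed level does not separate the alleles. The endothelial markers Emcn, Cdh5 and Kdr were at 172 to 242, 149 to 243 and 65.0 to 104 scaled FPKM over the 16 libraries, and summed levels of all 10 pan-endothelial markers were 800 to 1023 in 12/-, 864 in 12/vg and 735 to 928 over the 12 libraries of the 4 normal genotypes.

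None of the 7 tested genes was called in any of 9 comparisons (limma on log2(scaled FPKM + 1), adjusted p under 0.05 over 10550 genes). The background of calls was low: 0.209% of genes in 12/- against +/12, 0.569% against +/-, 0.445% against +/vg, 0.607% against +/+, 0.787% against the mean of the 4 normal genotypes and 0.0474% for the interaction of the swapped and the deleted allele. In +/12, +/- and +/vg against +/+ it was 0%, with unadjusted p under 0.05 in 567, 792 and 793 genes. Among the 7 genes, 2 had an unadjusted p under 0.05 in 12/- against +/+ (Gfi1b and Kit), where 12.2% of all genes did. Kit was the 1 gene in 12/- against +/12 (5.3% of all genes) and against the mean (11.5%), and Gfi1b the 1 gene in +/12 against +/+ (5.37%) and in +/vg against +/+ (7.52%). The median log2 change of the 7 in 12/- was -0.24 against +/12, 0.23 against +/-, -0.06 against +/vg and 0.27 against +/+, while the median of all genes tested was close to 0 in each. The comparisons of 12/- share its 3 libraries.

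**Figure D1:**
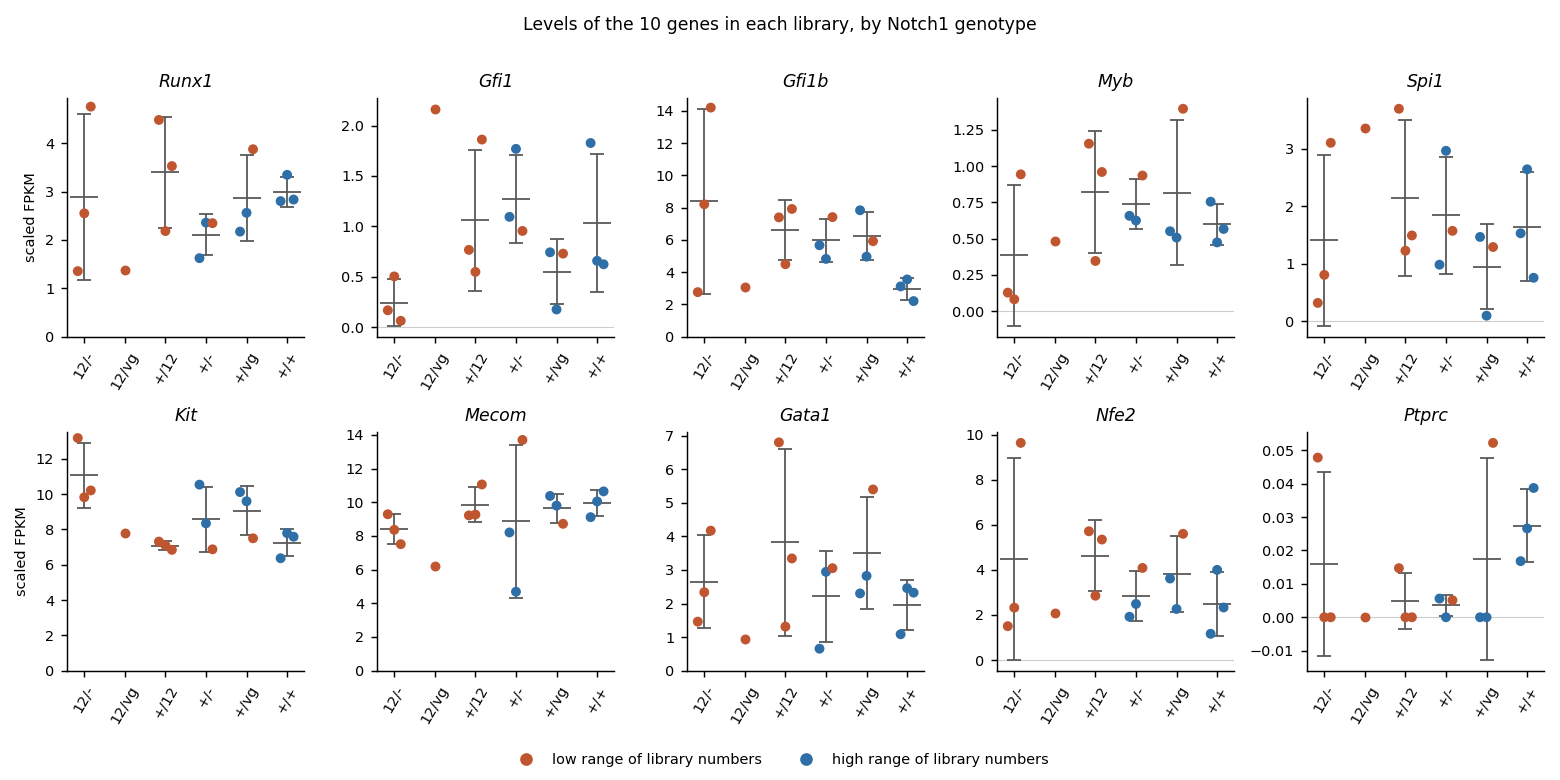
Scaled FPKM (y axis) of each of the 10 genes in every library, by Notch1 genotype (x axis); points are libraries, coloured by range of library numbers, the wide bar is the group mean and the error bar its SD (12/vg has 1 library). The mean of Kit is highest in 12/-, with libraries at 9.82 to 13.2 scaled FPKM that overlap those of +/- and +/vg. The mean of Gfi1 is lowest in 12/-, with libraries at 0.0648 to 0.505 that overlap those of +/vg.

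Runx1, the factor that starts the endothelial-to-blood switch (chr16:92601710-92826311, mm9), was present at a low level in every library. It had 1.35, 2.55 and 4.76 scaled FPKM in the 12/- libraries, 1.38 in 12/vg, 4.48, 2.18 and 3.53 in +/12, 1.62, 2.36 and 2.35 in +/-, 2.17, 2.56 and 3.88 in +/vg, and 2.80, 3.35 and 2.84 in +/+. The 12/- group holds both the lowest and the highest of all 16 values and overlaps every other genotype. Group means ran from +/12 (3.40 ± 1.16) through +/+ (3.00 ± 0.305), 12/- (2.89 ± 1.73) and +/vg (2.87 ± 0.894) to +/- (2.11 ± 0.422, SD, n = 3 each), each neighbour less than the larger of the 2 SDs from the next, with the single 12/vg value last. The log2 change of 12/- against +/+ was -0.13 ± 0.29 (SE; 95% interval -0.76 to 0.50; limma adjusted p = 0.903), and without 12/- replicate 1 it was 0.18.

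The use of the 2 Runx1 starts varied widely between libraries of the same genotype. Transcripts from the distal start made up 13.3%, 25.8% and 21.4% of Runx1 FPKM in 12/-, 14.8% in 12/vg, 62.2%, 35.6% and 29.7% in +/12, 4.57%, 22.8% and 47.7% in +/-, 10.1%, 45.8% and 39.5% in +/vg, and 0%, 48.5% and 6.98% in +/+. The proximal start was the larger in 15 of 16 libraries, +/12 replicate 1 being the exception, and the genotypes overlap. The highest distal level was 2.79 scaled FPKM in +/12 replicate 1, against 0 to 1.62 in the others. The split rests on how the authors' software shares reads between transcripts with common exons, so it is less certain than the sum, and no test was made.

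Gfi1, a zinc-finger repressor that acts below Runx1 in haemogenic endothelium (chr5:108145673-108153363, mm9), was low throughout and lowest on average in 12/-. It had 0.169, 0.505 and 0.0648 scaled FPKM in 12/-, against 2.17 in 12/vg, 0.768, 0.550 and 1.86 in +/12, 1.10, 1.77 and 0.955 in +/-, 0.744, 0.177 and 0.731 in +/vg, and 1.83, 0.659 and 0.625 in +/+. All 3 12/- libraries lie below every +/12, +/- and +/+ library and below 12/vg, and overlap +/vg through its replicate 2. Among the higher values, those of 12/vg (2.17) and +/- replicate 2 (1.77) come from the shallow libraries. Of the 10550 genes above the minimum, which do not include Gfi1, 6.84% lay wholly lower in 12/- than in +/12, 6.41% than in +/- and 9.46% than in +/+. With the minimum lowered to 0.1 FPKM, the log2 change of 12/- was -0.69 ± 0.28 against +/12 (SE; limma adjusted p = 0.924), -0.87 ± 0.28 against +/- (0.273), -0.31 ± 0.28 against +/vg (0.806) and -0.67 ± 0.28 against +/+ (0.391). The 95% interval against +/- ran from -1.46 to -0.27, and since a pseudocount of 1 stands beside values mostly under 1, these changes understate the ratio of levels. The 5 groups other than 12/- ranked 12/vg, +/- (1.27 ± 0.435), +/12 (1.06 ± 0.703), +/+ (1.04 ± 0.684) and +/vg (0.551 ± 0.323, SD, n = 3 each), and no neighbours with 3 libraries were farther apart than the larger of their SDs.

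Gfi1b, its close relative and partner in the same repression, also needed for red cells and megakaryocytes (chr2:28464969-28477502, mm9), was lowest on average in +/+. It had 2.76, 8.21 and 14.2 scaled FPKM in 12/-, 3.07 in 12/vg, 7.40, 4.49 and 7.92 in +/12, 5.67, 4.82 and 7.41 in +/-, 7.84, 4.96 and 5.92 in +/vg, and 3.11, 3.55 and 2.20 in +/+. The +/+ libraries were at 2.20 to 3.55 scaled FPKM, whereas 12/- is spread across the whole range, with replicate 3 the highest and replicate 1 next to the lowest of the 16. The log2 change against +/+ was 1.05 ± 0.39 in 12/- (2.06-fold; limma adjusted p = 0.308), 0.93 ± 0.39 in +/12 (0.898), 0.82 ± 0.39 in +/- (0.675) and 0.87 ± 0.39 in +/vg (0.658). These 4 comparisons share the same 3 +/+ libraries and are not independent of each other. Within the high range of library numbers, the 4 +/- and +/vg libraries had 4.82 to 7.84 scaled FPKM and lay above the 3 +/+ libraries (2.20 to 3.55), as did 2.59% of all genes tested. Without 12/- replicate 1 the log2 change of 12/- against +/+ was 1.60, with a limma adjusted p of 0.0517, and without its replicate 3 it was 0.59.

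Kit, the receptor for stem cell factor on blood progenitors and also on some endothelium (chr5:75971011-76052746, mm9), had its highest mean in 12/-. It had 13.2, 9.82 and 10.2 scaled FPKM in 12/-, 7.80 in 12/vg, 7.31, 7.10 and 6.84 in +/12, 10.5, 8.34 and 6.87 in +/-, 10.1, 9.59 and 7.50 in +/vg, and 6.37, 7.79 and 7.59 in +/+. The 12/- libraries lie above every +/12 and +/+ library and above 12/vg, and overlap +/- and +/vg through replicate 1 of each. Of all genes tested, 7.93% lay wholly higher in 12/- than in +/12 and 10.4% than in +/+. Kit averaged 11.1 ± 1.84 scaled FPKM in 12/- and 7.08 ± 0.235 in +/12, 8.58 ± 1.84 in +/-, 9.07 ± 1.39 in +/vg and 7.25 ± 0.769 in +/+ (SD, n = 3 each). The gap from 12/- to the next group, +/vg, was 2.00 scaled FPKM, more than the SD of either, and the neighbours below it, 12/vg included, were no farther apart than the larger SD of the pair.

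The log2 change of Kit in 12/- was 0.57 ± 0.16 against +/12 (SE; 1.48-fold, 95% interval 0.23 to 0.91), with unadjusted p = 0.00329 and a limma adjusted p of 0.390. It was 0.54 ± 0.16 against +/+ (1.46-fold; limma adjusted p = 0.188), 0.34 ± 0.16 against +/- (0.427), 0.26 ± 0.16 against +/vg (0.640) and 0.43 ± 0.12 against the mean of the 4 normal genotypes (0.174). Within the low range of library numbers, all 3 12/- libraries lay above the other 6 (6.84 to 7.80 scaled FPKM), as did 3.16% of all genes tested. Only +/- and +/vg have libraries in both ranges, so the effect of the range as a covariate rests on them. With that covariate the change against +/+ was 0.92 (limma adjusted p = 0.120) and against the mean 0.65 (0.0578). Kit changed in none of these by the threshold used, and the direction was the same in all 27 alternatives of each 12/- comparison.

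**Figure D2:**
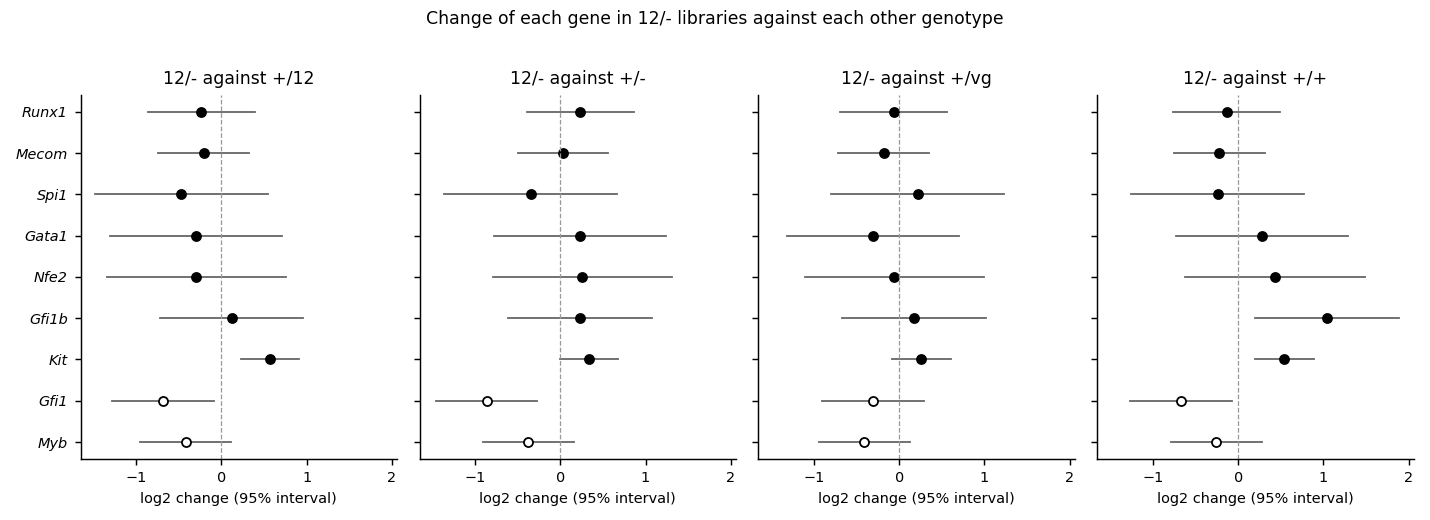
Log2 change of 9 of the genes (rows) in 12/- against +/12, +/-, +/vg and +/+ (panels), on the log2(scaled FPKM + 1) scale; points are limma estimates, lines their 95% intervals, and open points (Gfi1, Myb) come from the fit with a minimum of 0.1 FPKM. The Kit estimate lies right of 0 in all 4 panels, with an interval clear of 0 against +/12 and +/+, and the Gfi1 estimate lies left of it, with an interval clear of 0 against +/12, +/- and +/+. The intervals are not adjusted for the number of genes tested, and none of the changes shown was called.

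Mecom, which encodes the EVI1 zinc-finger factor of stem cells and endothelium (chr3:29850217-30408409, mm9), was the gene of the 10 with the highest mean, 9.21 FPKM. It had 9.29, 8.36 and 7.51 scaled FPKM in 12/-, 6.19 in 12/vg, 9.22, 9.27 and 11.1 in +/12, 8.21, 4.69 and 13.7 in +/-, 10.4, 9.80 and 8.72 in +/vg, and 9.11, 10.0 and 10.6 in +/+. The 12/- libraries are at or under the middle of the others and overlap each group of 3, and the lowest values belong to both shallow libraries, +/- replicate 2 and 12/vg. The log2 change was -0.22 ± 0.25 against +/+ (SE; 95% interval -0.76 to 0.31; limma adjusted p = 0.758). The short transcript from the distal start of Mecom made up 16.4% of its FPKM on average in 12/-, 7.57% in 12/vg, 15.1% in +/12, 6.97% in +/-, 18.2% in +/vg and 6.19% in +/+, and the proximal transcript was larger in all 16 libraries.

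**Figure D3:**
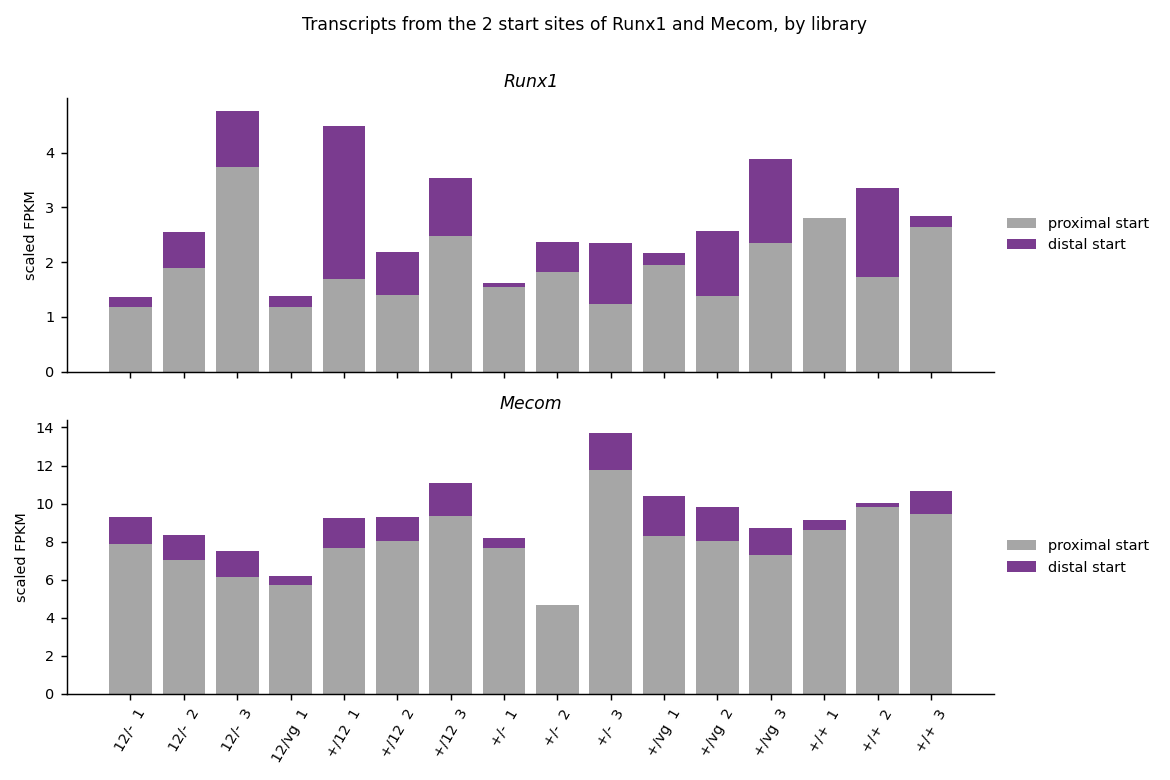
Scaled FPKM (y axis) of Runx1 and Mecom in each library (x axis, genotype and replicate), divided into transcripts from the proximal start (grey) and the distal start (purple). The distal share of Runx1 varies from 0% in +/+ replicate 1 to 62.2% in +/12 replicate 1, and in Mecom the distal part is smaller than the proximal part in all 16 libraries.

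Myb, a factor of definitive progenitors (chr10:20844735-20880790, mm9), was under the minimum. It had 0.128, 0.0819 and 0.943 scaled FPKM in 12/-, 0.482 in 12/vg, 1.15, 0.346 and 0.959 in +/12, 0.657, 0.625 and 0.935 in +/-, 0.551, 0.507 and 1.39 in +/vg, and 0.754, 0.474 and 0.566 in +/+. The lowest 2 of the 16 values are 12/- replicates 1 and 2, and replicate 3 is the fourth highest. With the minimum at 0.1 FPKM its log2 change in 12/- against +/+ was -0.26 ± 0.25 (SE; limma adjusted p = 0.730).

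Gata1, the factor of red cells and megakaryocytes (chrX:7536385-7544941, mm9), had 1.46, 2.34 and 4.17 scaled FPKM in 12/-, 0.948 in 12/vg, 6.80, 1.31 and 3.34 in +/12, 0.654, 2.94 and 3.05 in +/-, 2.30, 2.82 and 5.40 in +/vg, and 1.09, 2.46 and 2.32 in +/+. All genotypes with 3 libraries overlap, and +/12 holds both the highest value and one of the lower ones. Nfe2, a basic leucine zipper factor required for platelet release (chr15:103078648-103085847, mm9), had 1.50, 2.32 and 9.63 scaled FPKM in 12/-, 2.06 in 12/vg, 5.71, 2.85 and 5.34 in +/12, 1.92, 2.49 and 4.08 in +/-, 3.61, 2.26 and 5.60 in +/vg, and 1.16, 4.00 and 2.33 in +/+. Here 12/- replicate 3 is the highest of all 16 and its replicates 1 and 2 are among the lower ones. The log2 change of 12/- against +/+ was 0.27 ± 0.47 for Gata1 (SE; limma adjusted p = 0.858) and 0.43 ± 0.49 for Nfe2 (0.762). Both change sign without 12/- replicate 3 (-0.01 and -0.20) and with the range as a covariate (-0.48 and -0.29), so no direction is given for either.

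Spi1, which encodes PU.1, the myeloid and lymphoid ETS factor (chr2:90936953-90955913, mm9), had 0.321, 0.808 and 3.10 scaled FPKM in 12/-, 3.36 in 12/vg, 3.69, 1.23 and 1.49 in +/12, 0.985, 2.96 and 1.57 in +/-, 1.47, 0.0993 and 1.29 in +/vg, and 1.53, 2.64 and 0.758 in +/+. The groups of 3 overlap each other, the 12/vg value lies above every library except +/12 replicate 1, and within-group SDs were 55.2% to 105% of the mean. The values of 12/vg (3.36) and +/- replicate 2 (2.96) come from the shallow libraries. The log2 change in 12/- against +/+ was -0.24 ± 0.47 (SE; limma adjusted p = 0.884), with a change of sign without 12/- replicate 1 (0.11). Ptprc, which encodes the leukocyte surface phosphatase CD45 (chr1:139959437-140071882, mm9), was listed at 0 in 8 of 16 libraries and reached at most 0.0522 scaled FPKM. Its highest values were in +/vg replicate 3 and 12/- replicate 1 (0.0478), and all 3 +/+ libraries were above 0 (0.0168, 0.0266 and 0.0387).

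Over all 16 libraries, levels of Nfe2, Gata1, Gfi1b and Runx1 followed platelet genes, and Runx1 followed the other blood lists below more closely. The 16 genes of the megakaryocyte and platelet list were all measured at a mean of at least 1 FPKM and included Pf4 at a mean of 778 scaled FPKM, Ppbp at 36.8 and Clec1b at 35.6. Their summed level was 454, 879 and 1759 scaled FPKM in the 12/- libraries, 652 in 12/vg, and 310 to 2210 over the 12 libraries of the 4 normal genotypes. It was highest in +/12 replicate 1 and next highest in 12/- replicate 3, the libraries that also hold the highest Gata1 and the highest Nfe2 and Gfi1b. In bulk RNA, fewer cells of a type and less RNA per cell cannot be told apart.

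Over the 16 libraries, Pearson r with the mean log2 level of that list was 0.92 for Nfe2 (Spearman rho 0.91; permutation adjusted p = 0.0001), 0.88 for Gata1 (0.86; 0.0001), 0.75 for Gfi1b (0.78; 0.00249) and 0.75 for Runx1 (0.69; 0.00249). The unadjusted p of the first 2, 1e-05, is the smallest that 100000 resamples can give, and p-values were adjusted over 30 relations (10 genes by 3 lists), 14 of which had an adjusted p under 0.05. Among all 10550 genes tested, 1.68% had an r of at least 0.7 with this level. Without the 2 libraries farthest from the median of the list level, r was 0.92 for Nfe2, 0.82 for Gata1, 0.68 for Gfi1b and 0.60 for Runx1. Within the low range (9 libraries, exact permutation) r was 0.92 for Nfe2, 0.96 for Gata1, 0.81 for Gfi1b and 0.96 for Runx1. Within the high range (7 libraries) it was 0.88 for Nfe2 (exact permutation adjusted p = 0.0814), 0.65 for Gata1 (0.446), 0.41 for Gfi1b (0.731) and 0.06 for Runx1 (0.989). None of these had an adjusted p under 0.05, and the relation of Runx1 did not hold there.

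**Figure D4:**
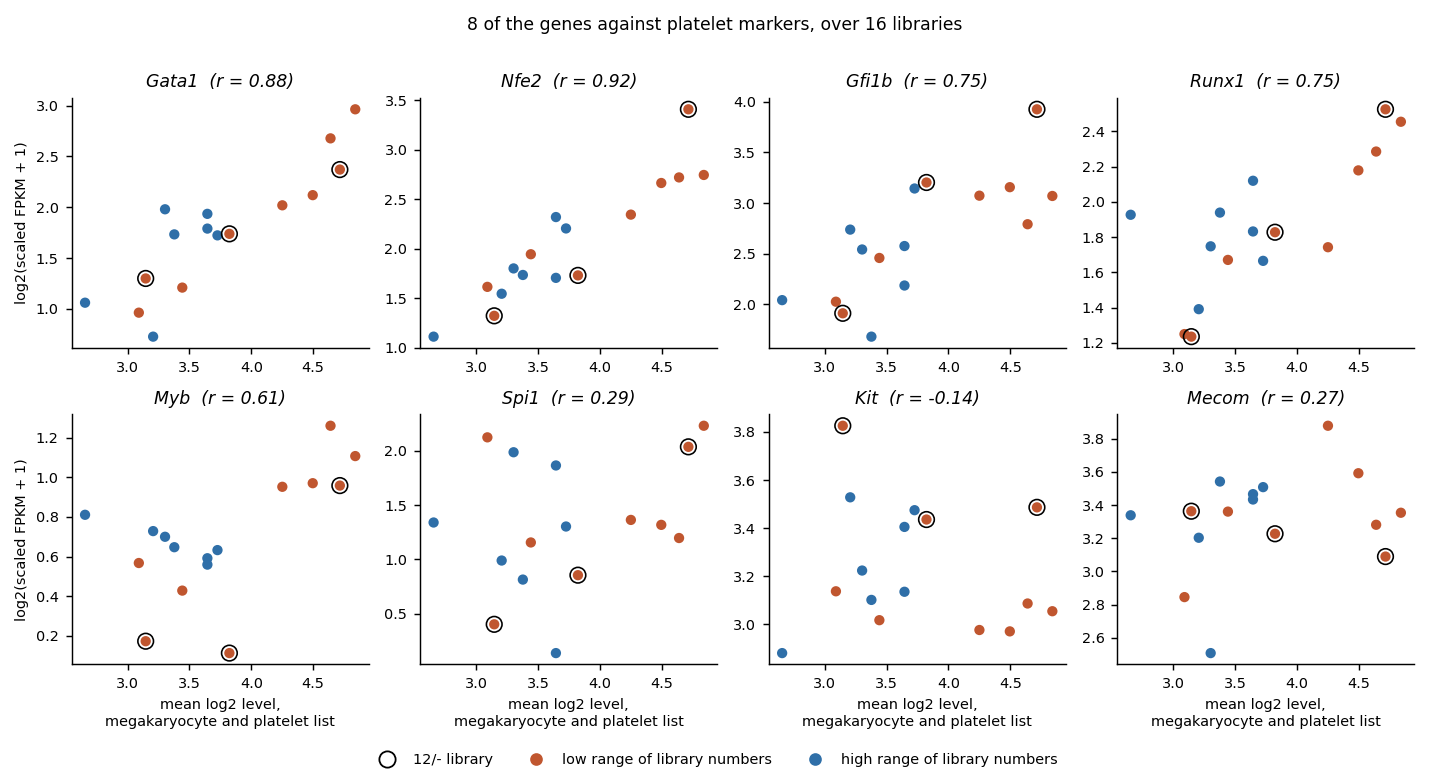
Log2 level of 8 genes (y axes, log2(scaled FPKM + 1)) against the mean log2 level of 16 megakaryocyte and platelet genes (x axes) over 16 libraries, coloured by range of library numbers, with 12/- libraries circled. Nfe2 (r = 0.92) and Gata1 (r = 0.88) climb along the axis, Gata1 most evenly among the low-range libraries, whereas Kit (r = -0.14) and Mecom (r = 0.27) do not.

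Kit, Mecom, Spi1 and Gfi1 showed no such relation: r with the platelet level was -0.14, 0.27, 0.29 and -0.28 (permutation adjusted p = 0.664, 0.438, 0.427 and 0.427). Myb had r = 0.61 (0.0279) over all libraries, with r = 0.82 in the low range and r = -0.93 in the high range (exact permutation adjusted p = 0.0387), so its pooled value does not describe both. In the 7 high-range libraries Myb spanned only 0.474 to 0.754 scaled FPKM, all under 1, and the shallow +/- replicate 2 is among them. Gfi1, Kit, Mecom, Spi1 and Ptprc had adjusted p over 0.05 with all 3 blood lists.

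The other blood lists gave related values, and they share libraries with the first. With the erythroid list, r was 0.82 for Runx1, 0.77 for Nfe2, 0.75 for Gata1, 0.61 for Gfi1b and 0.58 for Myb, and in the high range -0.01, 0.72, 0.28, 0.00 and -0.46. That list rests on embryonic globins (Hba-x 46.4, Hbb-y 45.5 and Hbb-bh1 42.6 scaled FPKM on average), with Klf1 at 0.403 on average and Tspo2 listed at 0 in all. With the macrophage and myeloid list, r was 0.89 for Runx1 (permutation adjusted p = 0.0001), 0.83 for Gata1, 0.75 for Nfe2 and 0.62 for Myb, and in the high range 0.97, 0.65, 0.35 and -0.51. Its level came mainly from Fcer1g (mean 16.1 scaled FPKM), an Fc receptor chain that platelets also carry, Cd68 (3.88) and Mpo (3.29), a granulocyte enzyme, with Mrc1 at 1.72 and Lyz2 at 1.66, genes of macrophages and other cells. The defining macrophage genes Csf1r, Adgre1 and C1qa stayed at or under 0.311, 0.438 and 0.141 in every library. The part of these cell types in the levels of the 10 genes was not tested.

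Among all genes tested, those most like each of the 7 genes over the 16 libraries were, by Pearson r, Ston2 (0.95), Treml2 (0.95) and Mfsd2b (0.94) for Nfe2 and Gp6 (0.92), P2ry1 (0.91) and Nrgn (0.91) for Gata1. Gp6 is the platelet collagen receptor, itself on the platelet list, and P2ry1 a platelet ADP receptor. For Runx1 they were Unc13d (0.90), Rbpms2 (0.89) and Wdr92 (0.88), and for Gfi1b Nfe2l2 (0.87), Gucy1a3 (0.81) and the platelet glycoprotein gene Gp5 (0.81). For Mecom they were Msh6 (0.89), C2cd2 (0.89) and Bet1 (0.88), for Kit Gng2 (0.82), Stc2 (0.79) and Zfp639 (0.79), and for Spi1 Pdzk1ip1 (0.82), Fcgrt (0.80) and Mtcp1 (0.77). Spearman rho of these 21 pairs lay between 0.65 and 0.94. The points share library and depth, and these are the top values among all genes tested, given with no p.

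Genes that work with the 10 were looked at as lists. Of 21 other blood transcription factors, 15 were tested and 0 were called in any comparison, with a median log2 change of 0.22 in 12/- against +/+ and 0.08 against +/12. The endothelial factors Sox7 and Fli1 had the smallest p against +/+, with log2 changes of 0.59 ± 0.14 (SE; limma adjusted p = 0.0983) and 0.45 ± 0.12 (0.141). Sox18, Lmo2 and Hhex, the most abundant, had 0.25, -0.05 and 0.55. Of 16 partners of the 10 proteins, 14 were tested and 0 were called. Cbfb, the partner subunit of RUNX1, had a log2 change of -0.59 ± 0.20 in 12/- against +/+ (limma adjusted p = 0.255). In 12/- Cbfb also had -0.34 against +/12, -0.79 against +/- and -0.28 against +/vg. Against +/+ it had -0.25 in +/12, 0.19 in +/- and -0.31 in +/vg. Maff, a small Maf protein of the kind that pairs with NFE2, had 1.00 ± 0.24 in 12/- against +/+ (limma adjusted p = 0.0957). Against the same +/+ libraries Maff also had 0.66 in +/12, 0.43 in +/- and 0.89 in +/vg. In 12/- it had 0.34 against +/12, 0.57 against +/- and 0.11 against +/vg. The most abundant partners, Hdac1, Hdac2 and Ldb1, had 0.18, -0.06 and -0.01 in 12/- against +/+.

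Of 16 progenitor surface genes, 10 were tested and 0 were called, with a median log2 change of -0.16 in 12/- against +/+. Cd93 had 0.39 ± 0.15 (SE; limma adjusted p = 0.323), Itga4 -0.43 ± 0.28 (0.570), and the abundant Cd34 and Il6st -0.13 and -0.20. Of 10 leukocyte signalling genes, 6 were tested and 0 were called, with a median of 0.32 against +/+ and -0.19 against +/12. In 12/- against +/+, Was had 0.62 ± 0.18 (limma adjusted p = 0.188) and Laptm5 0.52 ± 0.25 (0.425). Against the same +/+ libraries Was also had 0.94 in +/12, 0.37 in +/- and 0.77 in +/vg, and it had -0.32 in 12/- against +/12. All 16 platelet genes had a positive log2 change in 12/- against +/+ (0.21 to 0.92, median 0.69), but against +/12 the median was -0.35, and 0 were called in either. Against the same +/+ libraries, the changes of these genes ran from 0.43 to 1.71 in +/12. They ran from -0.09 to 1.05 in +/- and from -0.07 to 1.47 in +/vg. Of 17 erythroid genes 6 were tested and of 15 macrophage and myeloid genes 5, with 0 called and medians of 0.25 and 0.44 against +/+. Hbb-bh1, an embryonic globin, had 35.1, 96.2 and 187 scaled FPKM in 12/-, 2.13 in 12/vg and 12.4 to 55.6 in the 4 normal genotypes, and its log2 change against +/+ was not called (1.26, limma adjusted p = 0.376). The other abundant embryonic globins, Hba-x and Hbb-y, went the other way, with log2 changes of -0.17 and -0.10 in 12/- against +/+. Against +/12 they had -0.22 and -0.51, where Hbb-bh1 had 1.20. Of other cell types, 4 cardiomyocyte genes had a median log2 change of -0.97 in 12/- against +/+ and -0.94 in +/12 against +/+, and 3 epithelium and hepatoblast genes -1.31 and -1.37. None of these was called, and their part in the levels of the 10 genes was not tested. Among all lists the 1 gene called was Flt1, a VEGF receptor of the pan-endothelial list. It had 45.2 to 51.3 scaled FPKM in 12/-, 38.5 in 12/vg and 23.0 to 35.1 over the 12 libraries of the 4 normal genotypes, with a log2 change of 0.84 ± 0.15 in 12/- against +/+ (limma adjusted p = 0.0235). Flt1 was also called in 12/- against +/vg (limma adjusted p = 0.0427) and against the mean (0.00706). It was not called against +/12 (0.155) or +/- (0.0595).

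Whether the deleted allele acts differently beside the swapped and beside a wild-type allele was tested as an interaction. The ranges of library numbers are not balanced in it. The interaction was called in 5 of 10550 genes and in 0 of the 7. The estimate was 0.36 ± 0.22 for Kit (SE; 95% interval -0.12 to 0.85; limma adjusted p = 0.835). For Gfi1, in the fit with the lower minimum, it was -0.88 ± 0.39 (0.772).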

How the data were processed

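RNA of CD31-sorted endothelial cells from day 9.5 mouse embryos was sequenced in 16 libraries. FPKM per RefSeq transcript were made by the authors with cufflinks, per the file headers and names, and the coverage column the authors deposited beside it was used only to compare depths. TopHat2 2.0.9 and the mm9 build are named in the submitters' processing notes; the cufflinks version and use of strand: not given in the sources used here. FPKM of the 28107 transcript rows were summed per symbol (22096), 211 symbols with a status other than OK were left out, and the values were divided by median-ratio factors over 8610 tested genes at 1 FPKM or more in every library. Genes with a mean of at least 1 FPKM (10550) were tested on log2(scaled FPKM + 1) with limma 3.58.1 (R 4.3.3; lmFit, eBayes with trend, 10 residual degrees of freedom, two-sided, Benjamini-Hochberg); a fold on this scale understates the change of low genes. Aligned gigabases were estimated as the median ratio of deposited coverage to FPKM. The procedure was first tested on simulated data. Correlations used 100000 permutations, or all permutations with fewer than 10 libraries, in Python 3.11.15 with numpy 2.4.6 and scipy 1.17.1. Libraries were grouped by the genotype labels, and replicates were numbered in deposition order. The 10 genes and all gene lists were chosen with earlier results of these data known, so no list count is independent evidence. All 10 genes are named in the text; the rule for every other list takes genes called in any comparison, the 3 most abundant and the 2 with the smallest p in 12/- against +/+. Not all of these are printed for the blood cell and endothelial lists, and the defining markers named beside them were added after their values were seen. The cardiomyocyte list had 4 of 5 genes tested, the mesenchyme list 2 of 4, the epithelium and hepatoblast list 3 of 5, the germ cell list 1 of 4, and the neural and the neural crest and melanoblast lists 0, with 0 called in each. Promoter sequences are from RefSeq (GRCm38.p6); coordinates of genes are those of the files (mm9).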

Additional observations from a re-analysis of the deposited data

How the results depend on the processing

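No paired analysis was possible because the labels carry no replicate numbers. None of the 7 tested genes was called in any of 9 comparisons under any of 27 alternatives (Gfi1 and Myb had 1 alternative each and Ptprc none); the lowest adjusted p was 0.0517 (Gfi1b, above). The sign of the log2 change differed from the main value in 92 of 1701 alternative values of those 7 genes, in 36 of 63 results. In 12/- against +/+, the range covariate gave -0.48 for Gata1 and -0.29 for Nfe2. Leaving out 1 library gave -0.0091 to 0.53 for Gata1, -0.20 to 0.85 for Nfe2, -0.46 to 0.18 for Runx1 and -0.71 to 0.11 for Spi1. Within the high range, 2 relations to blood lists had an adjusted p under 0.05, against 14 over all libraries: Runx1 with the myeloid list and, with the opposite sign, Myb with the platelet list (r = -0.93). There r was -0.0075 for Runx1 and -0.46 for Myb with the erythroid list, and -0.51 for Myb with the myeloid list. Genes called over the whole table moved more. With array weights they were 92 in 12/- against +/12, 183 against +/vg, 143 against +/+, 249 against the mean, 3 in +/vg against +/+ and 2 for the interaction. With the range covariate they were 35 against +/12, 35 against +/-, 23 against +/+, 47 against the mean, 1 in +/12 against +/+ and 0 for the interaction. With the compared groups fitted alone they were 3 against +/12, 5 against +/-, 41 against +/+, 1 in +/- and in +/vg against +/+, and 1 for the interaction. Without the 2 shallow libraries they were 40 against +/12, 88 against +/vg, 112 against +/+, 137 against the mean and 0 for the interaction. The interaction had 2 with a pseudocount of 0.1 or 0.5 and 0 without scaling. In +/- against +/+ 1 gene was called with a minimum of 0.1 FPKM or any value above 0, and in +/vg against +/+ 1 with any value above 0. Leaving out 1 library gave 11 to 40 against +/12, 19 to 156 against +/-, 26 to 89 against +/vg, 20 to 112 against +/+, 28 to 140 against the mean, 0 to 2, 0 to 4 and 0 to 3 in +/12, +/- and +/vg against +/+, and 0 to 12 for the interaction. Without scaling, 52 genes were called higher and 0 lower in 12/- against +/+, against 57 and 7 with it, and the median of all genes moved to 0.11 in 12/- against +/12. The cause of these moves was not tested. With at most 3 libraries a group and reads per gene unknown, precision is low for Gfi1, Myb, Spi1 and Ptprc.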
